A study of Danio rerio with 28 samples.

Results

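The 81 genes described here are those whose mRNA was low in zebrafish embryos until 2 hours post fertilisation (hpf) and much higher at 3 hpf. They were chosen by their levels in wild-type (WT) poly(A) libraries of 0, 2 and 3 hpf, among 33737 Ensembl gene identifiers. A gene needed at least 3 CPM in both WT libraries of 3 hpf. Its mean there also had to be at least 8 times the WT mean at 2 hpf and at 0 hpf, with 0.1 CPM added to each mean. CPM is the usual depth-scaled count, with the library total taken without the gene ENSDARG00000080337, which alone took 22.2% to 46.1% of the counts of the poly(A) libraries. The forkhead and dusp genes and 7 named regulators were left out by the same rule, and 6 of these had met the thresholds.

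The zebrafish egg carries a store of maternal mRNA, and the genome of the embryo is silent during the first cleavages. Transcription starts on a small set of genes that are often short and have few introns, and then spreads to much of the genome at the midblastula transition. Many of the first genes encode transcription factors, zinc finger proteins and signalling molecules that act in the gastrula. Alpha-amanitin, an inhibitor of RNA polymerase II, separates mRNA made by the embryo from mRNA stored in the egg. The product of ybx1 has a cold shock domain and binds RNA, and pabpc1a encodes a cytoplasmic poly(A)-binding protein.

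RNA came from whole embryos of the AB strain, in 14 groups of 2 libraries. The 10 poly(A)-selected groups comprised 3 of ybx1 morphants (ybx1 MO; 3, 4 and 6 hpf), 2 of pabpc1a morphants (pabpc1a MO; 4 and 6 hpf) and 5 of WT embryos (0, 2, 3, 4 and 6 hpf). Morphants are embryos in which an antisense morpholino oligonucleotide targets the named mRNA. The 4 rRNA-depleted groups were embryos given 0.2 ng of alpha-amanitin at the one-cell stage and collected at 2, 4 and 6 hpf, and WT embryos at 4 hpf. Each amanitin collection pooled 100 embryos, and the duplicates were separate collections. The labels name no control morpholino and give no morpholino sequence or dose, so the effect of injection itself cannot be told apart from that of the knockdown. Where a title said MO and named no gene, the series description gave ybx1 as the target. Nothing states whether the other duplicates came from separate clutches, so p-values measure the spread between these libraries, which may be technical.

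Depth ranged between 48204100 and 100000375 gene counts per poly(A) library, and between 39882963 and 66381933 per rRNA-depleted library, so that 3 counts were worth 0.0434 to 0.115 CPM and 0.0453 to 0.0754 CPM per library. These floors cover counting error only. Some duplicates differed more than others. In WT 4 hpf, the reference of the morphant tests at that hour, 4078 genes lay at least 2-fold apart, the most of the 14 groups. Of the 81 genes 56 were higher in its replicate 1 (median 1.30-fold). In ybx1 MO 6 hpf 0 of the 81 genes lay 2-fold apart. All 81 genes were higher in replicate 2 than in replicate 1 of WT 3 hpf (median 2.00-fold) and of pabpc1a MO 4 hpf (median 4.50-fold). The same direction was seen for 77 of 81 genes in ybx1 MO 4 hpf (median 1.57-fold) and 80 of 81 in pabpc1a MO 6 hpf (median 1.66-fold). Counts of calls without single libraries are given below for some comparisons only. They stand without the share over all genes, so they show how far a count depends on 1 library and are not read as a trait of the set. A morpholino against ybx1 blocks translation or splicing and need not lower the mRNA, so its level checks the labels only weakly. YBX1 mRNA was 700 and 744 CPM in ybx1 MO embryos at 4 hpf, against 1285 and 796 CPM in WT embryos, and did not pass the test (log2 fold change -0.44, edgeR adjusted p = 0.0662). It was as low in pabpc1a MO embryos at 4 hpf, with 682 and 682 CPM (log2 fold change over WT -0.58, edgeR adjusted p = 0.0194). At 3 hpf it was 625 and 621 CPM in ybx1 MO embryos, against 424 and 558 CPM in WT embryos. The pabpc1a mRNA was 800.3 and 875 CPM in pabpc1a MO embryos at 4 hpf, against 1458 and 1111 CPM in WT embryos, a log2 fold change of -0.58 (edgeR adjusted p = 0.00737). Markers of later tissues (7 genes) summed to at most 4.13 CPM in any library.

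Of the 81 genes 46 had a symbol and 35 had none. Among the 46 were 12 transcription regulators, 6 signals and receptors, 5 genes of the cytoskeleton, adhesion and matrix, 4 growth arrest or immediate early genes, 4 genes of metabolism and transport, 3 other named genes, and 12 known only by a clone name. Symbols are printed as the reference table gives them, some in human form. The roles were assigned after values had been seen. All 81 genes passed the filter on low counts in both kinds of library. In the poly(A) libraries the rule itself saw to this, since the WT 3 hpf libraries alone were enough, and in the rRNA-depleted libraries the amanitin-treated samples alone were enough.

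The levels at 3 hpf chose the genes, so the contrast with 2 and 0 hpf is a description with no test. The sum of the 81 genes in the WT libraries was 53.5 and 59.6 CPM at 0 hpf, 54.8 and 60.5 CPM at 2 hpf and 1415 and 2828 CPM at 3 hpf. The median gene was 55.8-fold higher than at 2 hpf. All 81 genes were apart at 3 hpf, meaning that both libraries lay above both of the earlier hour, where 27.1% of all genes tested were apart in this direction from 2 hpf and 49.9% from 0 hpf, from which nothing is read. The clone-named gene ENSDARG00000040141 was the most abundant, with 230.1 and 434 CPM at 3 hpf, and it also had the highest level of the set at 2 hpf, 14.8 and 17.7 CPM. At the other extreme si:dkey-188c14.4, with 39.5 and 94.8 CPM at 3 hpf, had 0 and 0.0248 CPM at 2 hpf. At 2 hpf 30 of the 81 genes had 3 or fewer counts over both libraries, and at 0 hpf 43 had. Just inside the fold threshold lay ENSDARG00000092164 (8.10-fold), ENSDARG00000086839 (8.34-fold) and ENSDARG00000035750 (8.38-fold). Just outside lay ENSDARG00000074922 (7.51-fold), LFNG (7.37-fold) and marcksl1a (7.07-fold).

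**Figure D1:**
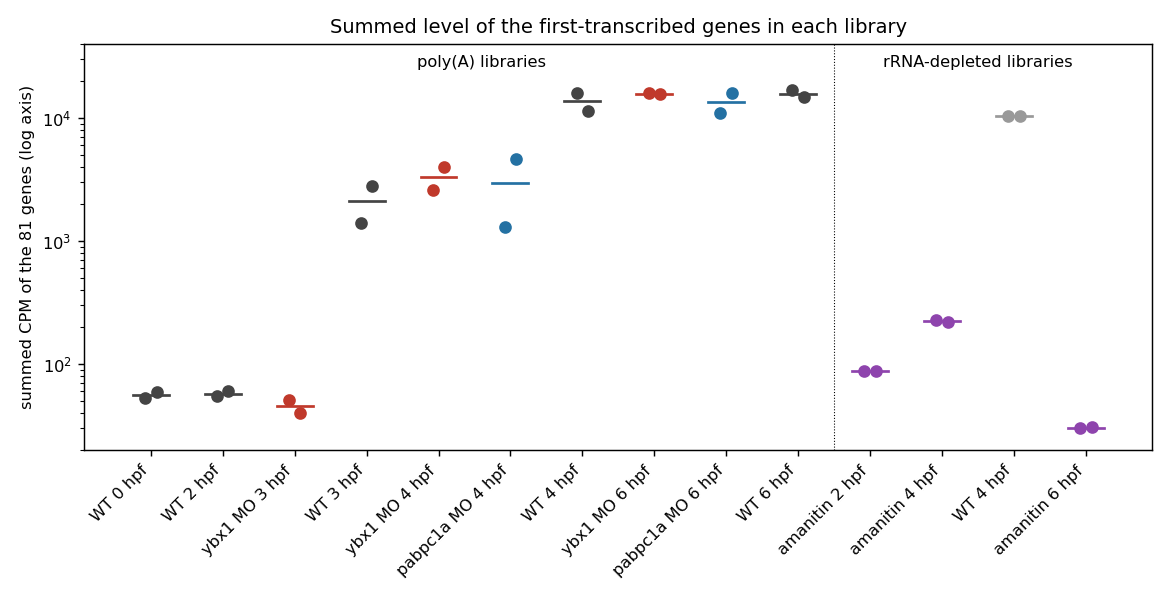
Summed CPM of the 81 genes in each library (points) with the mean of the group (bar), on a log axis, for poly(A) libraries on the left and rRNA-depleted libraries on the right. The sum was at most 60.5 CPM in WT embryos until 2 hpf and in ybx1 MO embryos at 3 hpf, and was at least 11011 CPM in every poly(A) library of 6 hpf.

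In WT embryos most of these genes had their highest mean CPM at 4 hpf. The sum was 15909 and 11433 CPM at 4 hpf, against 1415 and 2828 CPM at 3 hpf, and 80 of the 81 genes were higher in both libraries of 4 hpf than in either of 3 hpf. Among all 22377 genes tested 31.5% were apart in this direction. The WT 3 hpf libraries chose the genes, so nothing is read from that share. The median gene was 5.55-fold higher at 4 hpf, with a range of 1.40-fold to 32.7-fold. The steepest was cldne, a tight junction claudin of the blastula's outer cell sheet, the enveloping layer. It had 294 and 73.2 CPM at 4 hpf, against 3.43 and 7.63 CPM at 3 hpf. The flattest was ENSDARG00000076400, with 17.0 and 21.1 CPM at 4 hpf, against 8.31 and 18.9 CPM at 3 hpf, and its libraries overlapped. By group mean 60 of the 81 genes peaked at 4 hpf and 21 at 6 hpf in WT embryos.

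From 4 to 6 hpf, as the WT blastula became a gastrula, the set came apart into genes that faded and genes that went on rising. Of the 81 genes 39 fell and 7 rose at 6 hpf relative to 4 hpf (edgeR, adjusted p under 0.05), and 35 passed in neither direction. Each fit that left out 1 of the WT libraries compared called fewer of them. Over all genes tested 31.8% fell and 27.9% rose, so the share that fell was above the background and the share that rose below it. The 81 genes had a median log2 fold change of -1.50, against -0.06 for all genes tested. In fits that scale libraries by median ratios in place of trimmed means, the median of all genes moved by 0.28 in WT, 0.35 in ybx1 MO and 0.32 in pabpc1a MO embryos in the 6 against 4 hpf comparisons, which makes small changes between these hours depend on the scale. The edgeR scale also lay 0.42 above the ratio of the CPM values given here for WT at 6 against 4 hpf.

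Among the 12 transcription regulators 6 fell from 4 to 6 hpf and none rose, where 31.8% of all genes tested fell and 27.9% rose. In the whole set 39 of the 81 genes fell, so the count of regulators is near that of the set. The hairy-related repressors her5 and her11, which are neighbours in the RefSeq annotation of GRCz12tu, both fell. In WT embryos her5 had 8.62 and 9.08 CPM at 6 hpf, against 112 and 125 CPM at 4 hpf, a log2 fold change of -3.32 ± 0.41 (SE, edgeR adjusted p = 8.58e-06). The SE of a fold change, here and below, is the absolute log2 fold change divided by the square root of the edgeR F statistic. It was back-calculated from the test and is not a directly fitted standard error. The log2 fold change of her11 was -1.98 ± 0.45 (SE, edgeR adjusted p = 0.00170). The libraries of the 2 hours were apart for both genes. The yolk syncytial layer homeobox gene mxtx2 had 7.65 and 1.62 CPM at 6 hpf, against 44.4 and 55.8 CPM at 4 hpf (log2 fold change -2.95 ± 0.70 SE, edgeR adjusted p = 0.00285). The zinc finger gene znf1127 had 1.83 and 2.46 CPM at 6 hpf, against 71.5 and 81.7 CPM at 4 hpf (log2 fold change -4.75 ± 0.61 SE, edgeR adjusted p = 1.82e-05), and znf1089 had 1.18 and 1.04 CPM, against 21.9 and 28.8 CPM (log2 fold change -4.07 ± 0.70 SE, edgeR adjusted p = 1.99e-04). These 2 znf genes were thus close to gone within 2 hours of their peak. The draculin-like zinc finger gene drll.3 fell less, with 87.9 and 50.5 CPM at 6 hpf, against 443 and 358 CPM at 4 hpf (log2 fold change -2.10 ± 0.62 SE, edgeR adjusted p = 0.0122).

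The other 6 regulators did not pass the test between these hours. GATA3, a zinc finger factor of the ventral ectoderm, had 114 and 123 CPM at 6 hpf, against 184 and 93.5 CPM at 4 hpf, values that overlapped. The notochord homeobox gene noto had 72.5 and 71.0 CPM, against 92.2 and 33.5 CPM, and also overlapped. The TEAD cofactor gene vgll4l had 63.8 and 45.2 CPM at 6 hpf, against 232 and 181 CPM at 4 hpf; the libraries were apart, but the log2 fold change was -1.50 ± 1.01 (SE, edgeR adjusted p = 0.226).

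Of the 6 signals and receptors 2 rose from 4 to 6 hpf and 4 passed in neither direction. Over all genes tested 27.9% rose, so this count is near the background. The 7 genes of the whole set that rose included the Wnt ligand gene wnt11f2, the Wnt receptor gene FZD8, the claudin gene cldne, the immediate early gene IER5, the apolipoprotein gene apoeb and ENSDARG00000014277. The strongest was apoeb, with 2871 and 3056 CPM in WT embryos at 6 hpf, against 292 ± 142 CPM at 4 hpf (log2 fold change 3.75 ± 0.83 SE, edgeR adjusted p = 0.00239). It ended among the most abundant genes of the set. The receptor gene FZD8 had 68.4 and 93.9 CPM at 6 hpf, against 32.5 and 28.7 CPM at 4 hpf (log2 fold change 1.82 ± 0.47 SE, edgeR adjusted p = 0.00570). The ligand gene wnt11f2 had 164 and 175 CPM, against 124 and 57.6 CPM, with a smaller log2 fold change of 1.30 ± 0.44 (SE, edgeR adjusted p = 0.0243). Other abundant members had higher means at 6 hpf but did not pass. The kinase scaffold gene akap12b had 4594 and 2809 CPM at 6 hpf, against 1664 and 1067 CPM at 4 hpf (log2 fold change 1.86 ± 0.81 SE, edgeR adjusted p = 0.0688), and the FGF receptor gene fgfr4 had 424 and 479 CPM, against 204 and 112 CPM (log2 fold change 1.92 ± 0.90 SE, edgeR adjusted p = 0.0904).

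Of the genes without a symbol 24 of 35 fell and 1 rose from 4 to 6 hpf, where 31.8% of all genes tested fell and 27.9% rose. The clone-named genes showed 7 of 12 falling and none rising. In the whole set 39 of the 81 genes fell and 7 rose. The lowest fold change of all was that of ENSDARG00000095573, at 0.935 ± 0.615 CPM at 6 hpf and 39.0 ± 14.5 CPM at 4 hpf (SD, n = 2 each, log2 fold change -4.86). Some genes had profiles close to that of the most abundant one, ENSDARG00000040141. Over the 7 poly(A) groups other than WT 0, 2 and 3 hpf, the log2 ratio to ENSDARG00000040141 had an SD of 0.34 for ENSDARG00000087412, 0.39 for ENSDARG00000077712 and 0.42 for ENSDARG00000040144. It was 0.50 for ENSDARG00000087744 and 0.51 for the homeobox gene mxtx2. For ENSDARG00000095745, another gene of the same clone, the SD was 0.58, so a like profile was not limited to identifiers without a symbol. Whether the identifiers without a symbol share reads with a near-identical copy was not tested, so they may not be independent genes and their separate values are uncertain.

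**Figure D2:**
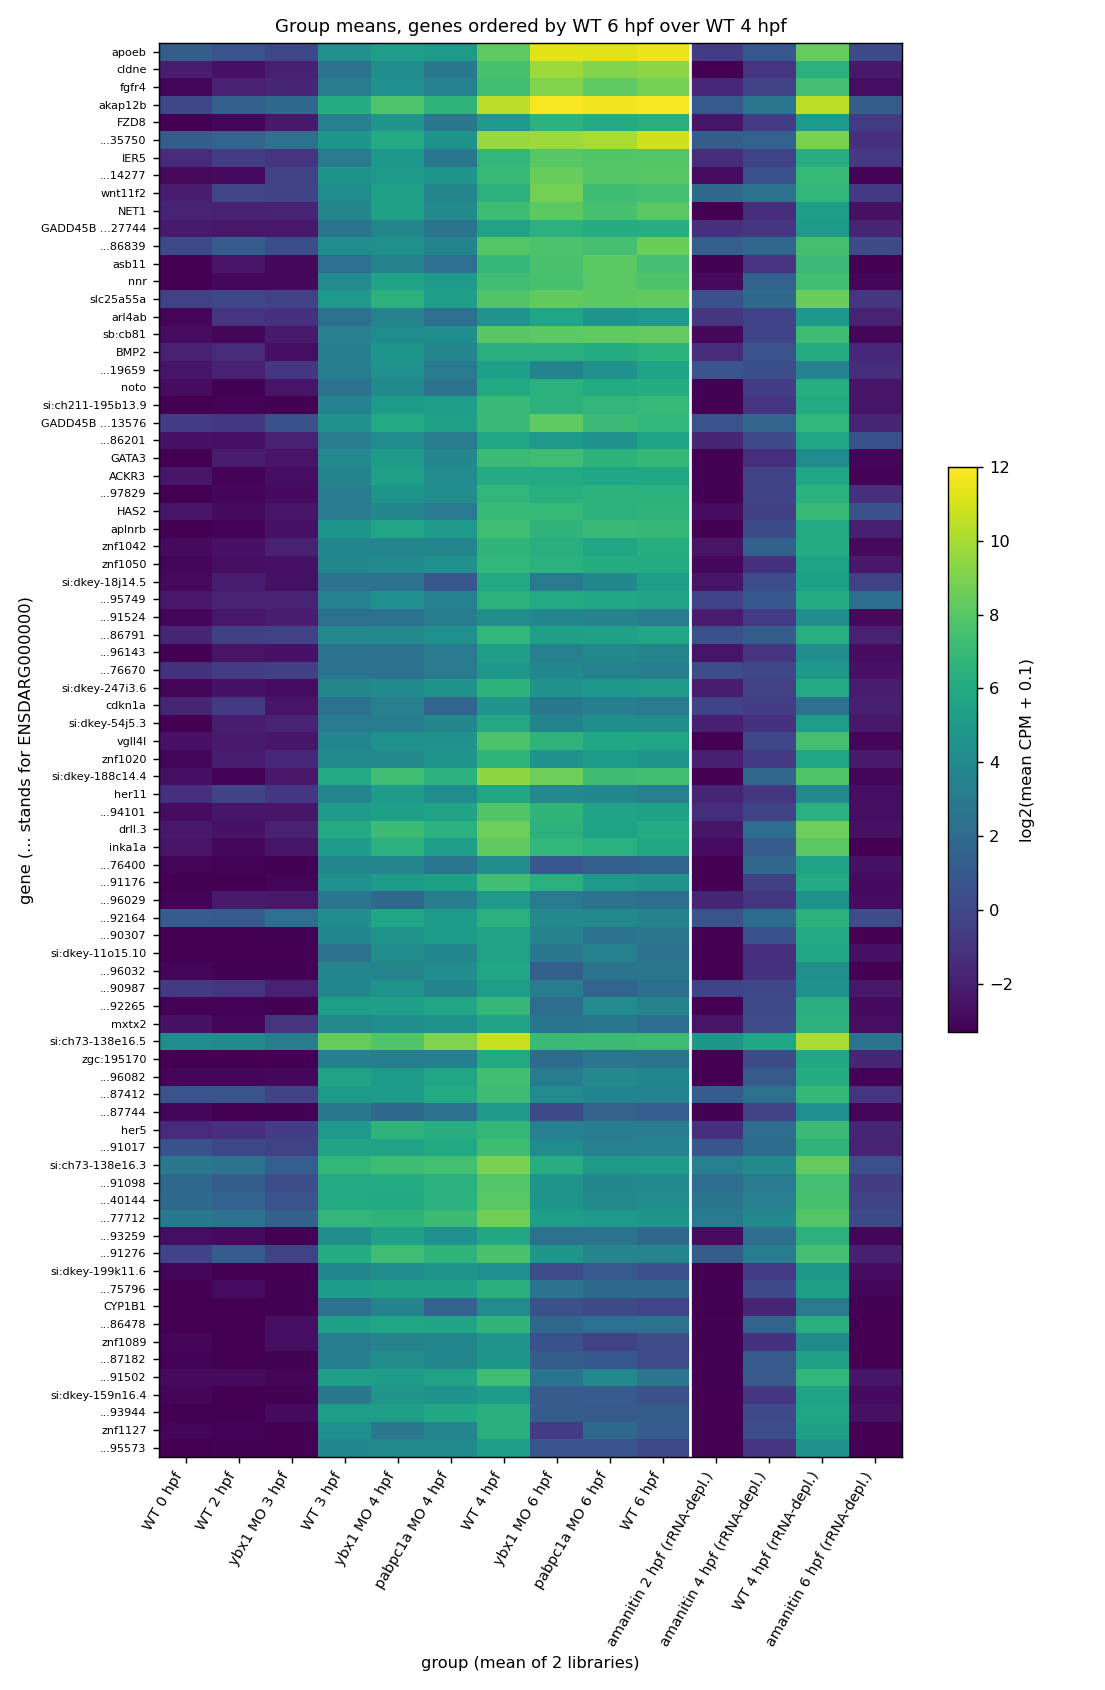
Mean level of 80 of the 81 genes in each group as log2(CPM + 0.1), with genes ordered from the highest to the lowest ratio of WT 6 hpf to WT 4 hpf and a white line between poly(A) and rRNA-depleted groups. The upper rows (apoeb, cldne) were brightest in the 3 poly(A) groups of 6 hpf, and among the lower rows her5 was brighter in the 3 poly(A) groups of 4 hpf than in those of 6 hpf.

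In ybx1 MO embryos at 3 hpf the sum of the set was far below that of WT embryos at 3 hpf. The sum was 51.0 and 40.3 CPM in ybx1 MO libraries, against 1415 and 2828 CPM in WT libraries of 3 hpf. It was also below the 54.8 and 60.5 CPM of WT libraries of 2 hpf. The median level of the 81 genes went the other way, with 0.121 and 0.1001 CPM in ybx1 MO libraries, against 0.0579 and 0.0744 CPM in WT libraries of 2 hpf. The rule required low WT levels at 2 hpf, so nothing is read from the comparison with that hour. All 81 genes were lower in both ybx1 MO libraries than in either WT library, where 41.7% of all genes tested were apart in that direction; the WT libraries of 3 hpf chose the genes, so no test is given and nothing is read from the count. The median gene stood at 1.11% of its WT mean, with a range of 0% to 26.9%, and 21 genes had 3 or fewer counts over both ybx1 MO libraries. Such values come from bulk embryos, where fewer cells making an mRNA and less mRNA per cell cannot be told apart. Both morphants were measured in poly(A) libraries only. A change in how much of an mRNA was captured by its poly(A) tail cannot be told apart from these either, at any hour.

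At 3 hpf her5 had 0.674 and 0.517 CPM in ybx1 MO embryos, against 20.7 and 39.0 CPM in WT embryos. The receptor gene aplnrb, which guides mesendoderm cells in the gastrula, had 0.0673 ± 0.0463 CPM, against 26.3 ± 19.4 CPM (mean ± SD, n = 2 each). The PAK inhibitor gene inka1a had 0.0846 ± 0.0219 CPM, against 34.9 ± 19.8 CPM. None of these libraries came near the WT values of 3 hpf. In WT embryos at 2 hpf her5 had 0.377 and 0.248 CPM. The highest remainders belonged to genes near the fold threshold, ENSDARG00000092164 with 26.9% and ENSDARG00000035750 with 20.4% of the WT mean, and arl4ab, a gene with a symbol, kept 7.15%. The WT means of the first 2 were already 1.96 and 3.10 CPM at 2 hpf, against 17.8 and 26.7 CPM at 3 hpf. The rule used these values, so nothing is read from the nearness of high remainders to the threshold.

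One hour later the set had come on in ybx1 MO embryos. All 81 genes rose at 4 hpf relative to 3 hpf in ybx1 MO embryos, where 4.8% of all genes tested rose and 2.96% fell (edgeR, adjusted p under 0.05). The median log2 fold change was 7.43, or 7.40 with the 21 genes at 3 or fewer counts set to the bound that 3 counts over the group allow, against 0.09 for all genes tested. Without either ybx1 MO library of 3 hpf the count was 66. With 84.0 and 113 CPM at 4 hpf, against 0.674 and 0.517 CPM at 3 hpf, her5 gave a log2 fold change of 7.40 ± 0.51 (SE, edgeR adjusted p = 4.15e-06). The gene inka1a had 61.3 and 118 CPM at 4 hpf, against 0.0846 ± 0.0219 CPM at 3 hpf (log2 fold change 10.03 ± 1.03 SE, edgeR adjusted p = 1.88e-04). Neither pair of groups came near to overlapping.

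The level reached at 4 hpf was still below that of WT embryos. The sum was 2624 and 3967 CPM in ybx1 MO libraries, against 15909 and 11433 CPM in WT libraries. Of the 81 genes 43 were lower and none higher (edgeR, adjusted p under 0.05), where 19.4% of all genes tested were lower and 12.8% higher. Every one of the 81 fitted fold changes was negative, with a median of -1.89 on the log2 scale against -0.06 for all genes tested. The median gene stood at 25.7% of the WT mean of 4 hpf, and 62 genes lay between the WT means of 3 and 4 hpf while 19 were at or below the WT mean of 3 hpf. The WT 3 hpf libraries chose the genes, so nothing is read from the place of these genes relative to 3 hpf. The count of 43 rests on single libraries. It was 15 without WT 4 hpf replicate 1, 8 without ybx1 MO replicate 1 and 23 without ybx1 MO replicate 2, against 44 without WT 4 hpf replicate 2.

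Regulators differed among themselves in this comparison. Of the 12, 6 were lower in ybx1 MO embryos, where 19.4% of all genes tested and 43 of the 81 genes were lower. The gene znf1127 had 4.66 and 8.64 CPM in ybx1 MO embryos, against 71.5 and 81.7 CPM in WT embryos (log2 fold change -3.44 ± 0.56 SE, edgeR adjusted p = 7.09e-04), and of the 10 calls in this comparison that were refitted under alternatives, this one alone held under all 10. The notochord gene noto had 10.6 and 21.7 CPM, against 92.2 and 33.5 CPM (log2 fold change -1.89 ± 0.54 SE, edgeR adjusted p = 0.0192). By contrast her5 had 84.0 and 113 CPM in ybx1 MO embryos, against 112 and 125 CPM in WT embryos, with a log2 fold change of -0.18 ± 0.37 (SE, edgeR adjusted p = 0.753). The log2 fold change of her11 was -0.58 (edgeR adjusted p = 0.334) and that of GATA3 -2.04 (edgeR adjusted p = 0.0509), and neither passed.

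Of the 6 signals and receptors 1 was called lower, where 19.4% of all genes tested were lower, so this count is near the background. All 6 fitted log2 fold changes were negative, with a median of -1.23. The gene called was fgfr4, with 12.9 and 30.4 CPM in ybx1 MO embryos, against 204 and 112 CPM in WT embryos (log2 fold change -2.80 ± 0.94 SE, edgeR adjusted p = 0.0439). The Wnt receptor gene FZD8 had 21.2 and 28.5 CPM, against 32.5 and 28.7 CPM (log2 fold change -0.21 ± 0.46 SE, edgeR adjusted p = 0.764), groups that were barely apart. Of the 5 genes of the cytoskeleton, adhesion and matrix 3 were lower: cldne, akap12b and HAS2, which encodes a hyaluronan synthase. The claudin gene cldne had 12.5 and 25.4 CPM, against 294 and 73.2 CPM (log2 fold change -3.22 ± 0.82 SE, edgeR adjusted p = 0.0130). Of the 4 metabolic genes 2 were lower, among them apoeb at 29.7 and 44.3 CPM, against 292 ± 142 CPM (log2 fold change -2.90 ± 0.80 SE, edgeR adjusted p = 0.0189).

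In pabpc1a MO embryos the set was lower than in WT at 4 hpf too. The sum was 1303 and 4648 CPM in pabpc1a MO libraries, against 15909 and 11433 CPM in WT libraries, so the morphant libraries themselves differed by more than 3-fold while both lay below WT. Of the 81 genes 65 were lower and none higher (edgeR, adjusted p under 0.05), where 20.8% of all genes tested were lower and 13.5% higher. Their median log2 fold change was -2.17 against -0.08 for all genes tested. The median gene stood at 21.9% of the WT mean, with 58 genes between the WT means of 3 and 4 hpf, 22 at or below that of 3 hpf and 1, si:dkey-199k11.6, above that of 4 hpf. As for ybx1 MO, nothing is read from the place relative to WT 3 hpf, whose libraries chose the genes. The count was 26 without WT 4 hpf replicate 1 and 35 without pabpc1a MO replicate 1. In a fit of the 4 libraries compared alone none passed (edgeR; 58 genes at an unadjusted p under 0.05), whereas DESeq2 on all poly(A) libraries called 68. Both morphants were compared with the same WT libraries, so the comparisons are not independent of each other.

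The pabpc1a MO embryos were lower than WT in all 6 signals and receptors, all 5 genes of the cytoskeleton, adhesion and matrix, all 4 growth arrest and immediate early genes and all 4 metabolic genes. Over all genes tested 20.8% were lower, and in the whole set 65 of the 81 genes. Full counts in groups this small are therefore not read as a trait of a role. The immediate early gene IER5 had 2.55 and 10.3 CPM in pabpc1a MO embryos, against 139 and 82.6 CPM in WT embryos (log2 fold change -4.09 ± 0.61 SE, edgeR adjusted p = 5.22e-04). The ligand gene wnt11f2 had 6.60 and 18.8 CPM, against 124 and 57.6 CPM (log2 fold change -2.83 ± 0.47 SE, edgeR adjusted p = 9.36e-04), and the cell cycle inhibitor gene cdkn1a had 0.926 and 5.37 CPM, against 22.5 and 27.4 CPM (log2 fold change -2.96 ± 0.64 SE, edgeR adjusted p = 0.00323). In these 3 genes both morphant libraries lay below both WT libraries. The E3 ligase adaptor gene asb11 had 0.405 and 8.99 CPM, against 162 and 71.5 CPM (log2 fold change -4.63 ± 1.01 SE, edgeR adjusted p = 0.00663), with a wide gap between the morphant libraries.

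Of the 12 regulators 9 were lower in pabpc1a MO embryos, where 20.8% of all genes tested and 65 of the 81 genes were lower. GATA3 had 3.68 and 23.5 CPM, against 184 and 93.5 CPM in WT embryos (log2 fold change -3.34 ± 0.75 SE, edgeR adjusted p = 0.00706), and noto had 2.33 and 8.16 CPM, against 92.2 and 33.5 CPM (log2 fold change -3.57 ± 0.58 SE, edgeR adjusted p = 7.27e-04). The 3 that did not pass were her5, mxtx2 and znf1089. With 40.4 and 111 CPM, against 112 and 125 CPM, her5 had a log2 fold change of -0.61 ± 0.37 (SE, edgeR adjusted p = 0.221). The clone-named gene si:dkey-199k11.6 had 11.1 and 41.2 CPM, against 22.7 and 18.9 CPM, and the morphant libraries lay on either side of WT.

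**Figure D3:**
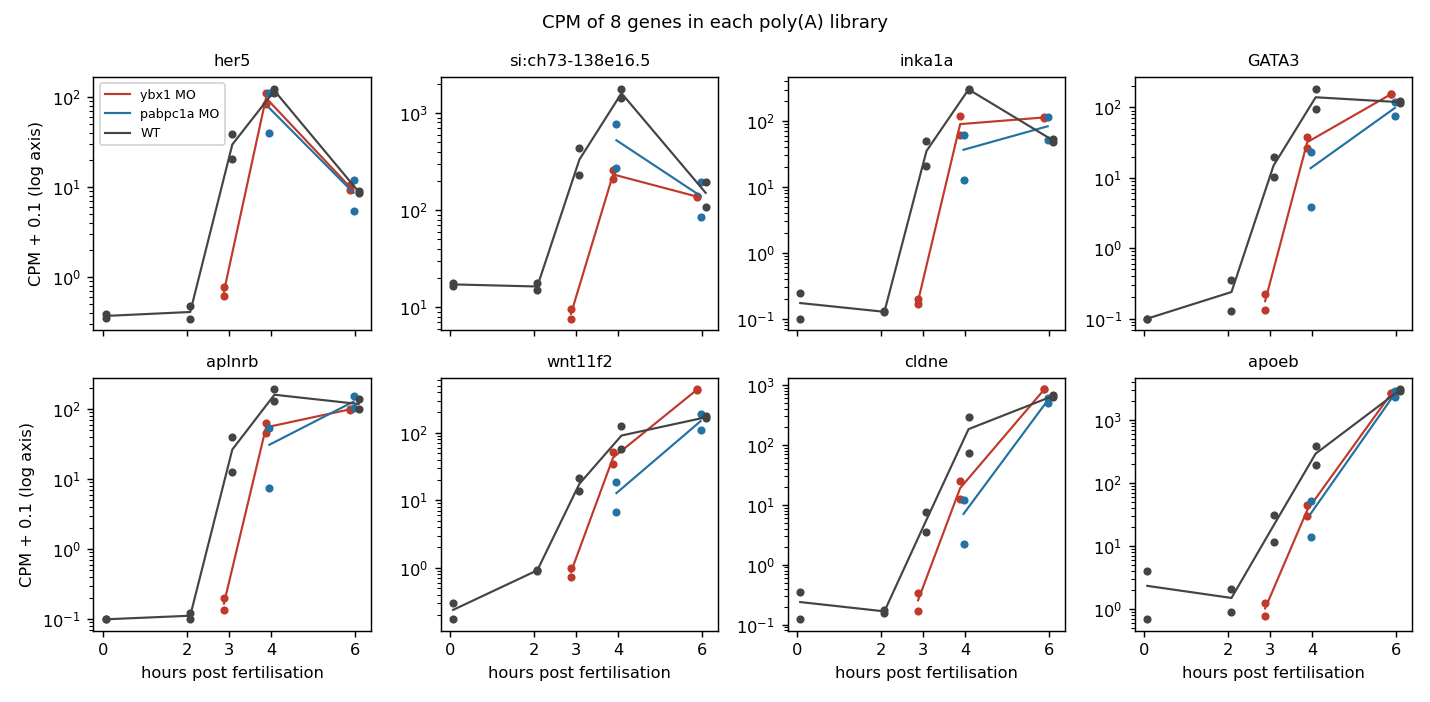
CPM + 0.1 on a log axis against hours post fertilisation for 8 genes in each poly(A) library (points), with lines through the group means of ybx1 MO, pabpc1a MO and WT. For her5 one pabpc1a MO library lies at 40.4 CPM at 4 hpf and the other morphant libraries of that hour nearer to WT, whereas for GATA3, cldne and apoeb both morphants lie below WT at 4 hpf and near it at 6 hpf.

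Marker genes of the stage moved with these differences, and their part in the result was not tested. In sums that leave out the 81 genes, 34 early zygotic transcription factors reached 2047 to 2451 CPM in ybx1 MO libraries and 1096 to 2048 CPM in pabpc1a MO libraries at 4 hpf, against 3848 to 5788 CPM in WT libraries at 4 hpf. The 13 oocyte and egg markers summed to 6514 to 6631 CPM in ybx1 MO and 6547 to 6779 CPM in pabpc1a MO libraries, against 3949 to 4840 CPM in WT. The 10 germ line markers summed to 1822 to 1925 CPM in ybx1 MO and 2065 to 2309 CPM in pabpc1a MO libraries, against 975 to 1418 CPM in WT. The egg and germ line markers were thus higher, and the zygotic ones lower, in both morphants. The sum of 14 enveloping layer markers was 528 to 678 CPM in ybx1 MO and 314 to 470.5 CPM in pabpc1a MO libraries, against 1099 to 2993 CPM in WT libraries. The 9 yolk syncytial layer markers summed to at most 3.26 CPM in ybx1 MO and 1.91 CPM in pabpc1a MO libraries at 4 hpf, with 1 at 0 counts in each group, against 24.7 to 71.3 CPM in WT libraries.

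By 6 hpf few genes of the set passed the test against WT in either morphant. The sum was 15868 and 15651 CPM in ybx1 MO libraries, against 16765 and 14843 CPM in WT libraries. In ybx1 MO embryos 3 genes were higher and 1 was lower than in WT (edgeR, adjusted p under 0.05), where 11.9% of all genes tested were higher and 15.6% lower. The number of calls was 12 with DESeq2, 37 in a fit of the 4 libraries compared alone, 1 without either ybx1 MO library of 6 hpf and 2 without WT 6 hpf replicate 2. No share over all genes is given for these refits, so their counts are not read as a trait of the set. In the main fit the median log2 fold change was 0.52 against -0.06 for all genes tested, on a scale that lay 0.30 above the CPM ratio. The growth arrest gene GADD45B ENSDARG00000013576 had 303 and 295 CPM in ybx1 MO embryos, against 116 and 109.5 CPM in WT embryos (log2 fold change 1.70 ± 0.35 SE, edgeR adjusted p = 0.00332), a call that held under all 10 alternatives. The other GADD45B entry, ENSDARG00000027744, did not pass, with means of 87.1 CPM in ybx1 MO and 75.8 CPM in WT embryos (log2 fold change 0.51, edgeR adjusted p = 0.581). The ligand gene wnt11f2 had 441 and 436 CPM, against 164 and 175 CPM (log2 fold change 1.67 ± 0.45 SE, edgeR adjusted p = 0.0163), and the small GTPase gene arl4ab had 54.3 and 53.9 CPM, against 32.9 and 28.1 CPM (log2 fold change 1.12 ± 0.40 SE, edgeR adjusted p = 0.0495). The gene that was lower was ENSDARG00000019659, at 11.7 CPM on average in ybx1 MO embryos and 47.7 CPM in WT embryos.

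In pabpc1a MO embryos at 6 hpf the sum was 11011 and 15986 CPM, against 16765 and 14843 CPM in WT libraries. None of the 81 genes passed in edgeR, where 4.55% of all genes tested were higher and 4.61% lower; 0 had an unadjusted p under 0.05, and DESeq2 also called 0. A fit of the 4 libraries compared alone called 6. The fitted log2 fold changes ranged from -1.13 to 1.41 around a median of 0.23, on a scale that lay 0.31 above the CPM ratio. The sign of that median thus depends on the scale. The duplicates of pabpc1a MO 6 hpf lay at least 2-fold apart for 27 of the 81 genes. Among the 18983 genes with at least 20 counts they did so for 3456. The part of this spread in the lack of calls was not tested. A difference that does not pass the test is not shown to be absent.

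The change of the morphant effect between the hours was tested itself. For 32 genes in ybx1 MO and 40 in pabpc1a MO embryos the log2 fold change over WT was higher at 6 hpf than at 4 hpf, and for none was it lower (edgeR interaction term, adjusted p under 0.05). Among all genes tested 14.8% were called higher and 11.6% lower for ybx1 MO, and 14.1% higher and 8.72% lower for pabpc1a MO. The median difference was 2.31 for ybx1 MO and 2.39 for pabpc1a MO embryos, against 0.06 and 0.14 for all genes tested. The counts depend on single libraries. For ybx1 MO the count was 7 without ybx1 MO 4 hpf replicate 1, 13 and 17 without replicates 1 and 2 of ybx1 MO 6 hpf, 12 without WT 4 hpf replicate 1, and 19 and 15 without replicates 1 and 2 of WT 6 hpf. For pabpc1a MO it was 73 without pabpc1a MO 4 hpf replicate 2, 23 and 15 without replicates 1 and 2 of pabpc1a MO 6 hpf, 15 without WT 4 hpf replicate 1, and 26 and 12 without replicates 1 and 2 of WT 6 hpf. In fits of the libraries compared alone the counts were 60 for ybx1 MO and 2 for pabpc1a MO. In ybx1 MO embryos wnt11f2 gave 2.68 ± 0.63 (SE, edgeR adjusted p = 0.00909) and cldne 3.89 (edgeR adjusted p = 0.0249). In pabpc1a MO embryos IER5 gave 4.33 ± 0.79 (SE, edgeR adjusted p = 0.00352) and cldne 4.78 ± 1.12 (SE, edgeR adjusted p = 0.0128). The calls of wnt11f2 in ybx1 MO and of IER5 in pabpc1a MO embryos held under all 14 alternatives. The difference for her5 did not pass, with 0.64 in ybx1 MO (edgeR adjusted p = 0.411) and 0.81 in pabpc1a MO embryos (edgeR adjusted p = 0.303).

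**Figure D4:**
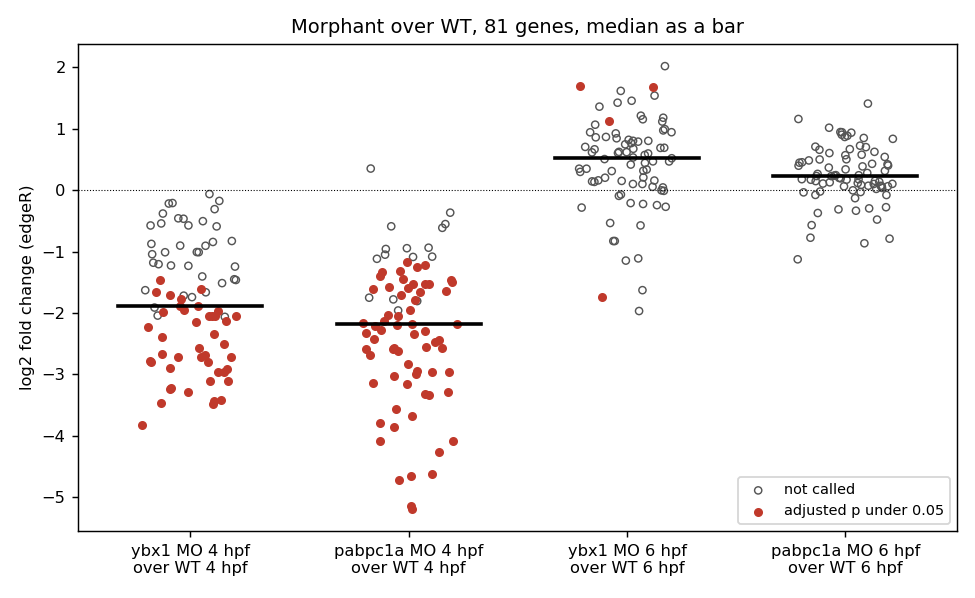
Log2 fold change over WT from edgeR for each of the 81 genes, with filled points for an adjusted p under 0.05 and a bar at the median, for ybx1 MO and pabpc1a MO at 4 hpf and at 6 hpf. The medians are -1.89 and -2.17 at 4 hpf and 0.52 and 0.23 at 6 hpf. At 6 hpf the edgeR scale lay 0.30 (ybx1 MO) and 0.31 (pabpc1a MO) above the CPM ratio.

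Within each morphant the same hours showed genes going both ways. In ybx1 MO embryos 36 genes rose and 19 fell at 6 hpf relative to 4 hpf (edgeR, adjusted p under 0.05), where 35.2% of all genes tested rose and 36.4% fell. In pabpc1a MO embryos 38 rose and 21 fell, where 37.1% of all genes tested rose and 35.3% fell; a fit of the 4 libraries compared alone called 29 in all. The edgeR scale lay 0.63 above the CPM ratio in ybx1 MO and 0.69 above it in pabpc1a MO embryos, and the counts of rising and falling genes rest on that scale. These counts also changed when single libraries were left out. The 7 genes that rose in WT embryos also rose in each morphant. Of the 35 that passed in neither direction in WT embryos, 26 rose in ybx1 MO and 29 in pabpc1a MO embryos. Nothing is therefore read from the overlap of the rising genes. Of the 39 that fell in WT embryos, 19 fell, 3 rose and 17 did not pass in ybx1 MO embryos, and 21 fell, 2 rose and 16 did not pass in pabpc1a MO embryos. The fading gene her5 fell in every background, with 10.5 and 9.33 CPM at 6 hpf against 84.0 and 113 CPM at 4 hpf in ybx1 MO embryos (log2 fold change -2.68 ± 0.40 SE, edgeR adjusted p = 3.33e-05) and 5.30 and 11.9 CPM against 40.4 and 111 CPM in pabpc1a MO embryos (log2 fold change -2.52 ± 0.40 SE, edgeR adjusted p = 5.93e-05). The clone-named gene ENSDARG00000040141, which fell in WT embryos, had 139 and 136 CPM at 6 hpf against 207 and 259.9 CPM at 4 hpf in ybx1 MO embryos, and did not pass (log2 fold change -0.13 ± 0.46 SE, edgeR adjusted p = 0.809). Its CPM values at 6 hpf both lay below those at 4 hpf, so its fitted fold change also depends on the scale.

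The morphants were also compared with each other. At 4 hpf 5 genes were higher in ybx1 MO than in pabpc1a MO embryos and none was lower (edgeR, adjusted p under 0.05), where 7.95% of all genes tested were higher and 8.82% lower. They were wnt11f2, FZD8, IER5, arl4ab and CYP1B1, a cytochrome P450 gene. The ligand gene wnt11f2 had 34.1 and 51.5 CPM in ybx1 MO embryos, against 6.60 and 18.8 CPM in pabpc1a MO embryos (log2 fold change 1.82 ± 0.46 SE, edgeR adjusted p = 0.0189). Its receptor family gene FZD8 had 21.2 and 28.5 CPM, against 2.91 and 10.5 CPM (log2 fold change 1.95 ± 0.48 SE, edgeR adjusted p = 0.0176). The libraries of the morphants were apart for both genes. These counts depend on single libraries, with 0 calls without ybx1 MO replicate 2 (edgeR; 8 genes at an unadjusted p under 0.05), 41 without pabpc1a MO replicate 2, and 0 in a fit of the 4 libraries alone (edgeR; 1 at an unadjusted p under 0.05); DESeq2 called 10.

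At 6 hpf 4 genes were higher and 3 lower in ybx1 MO than in pabpc1a MO embryos (edgeR, adjusted p under 0.05), where 12.3% of all genes tested were higher and 15.5% lower. The higher genes were wnt11f2, arl4ab, GADD45B (ENSDARG00000013576) and ENSDARG00000090987. The lower ones were znf1127, ENSDARG00000092265 and ENSDARG00000096032. At this hour wnt11f2 had 441 and 436 CPM in ybx1 MO embryos, against 109 and 189 CPM in pabpc1a MO embryos (log2 fold change 1.60 ± 0.45 SE, edgeR adjusted p = 0.0199). The zinc finger gene znf1127 had 0.710 and 0.384 CPM, against 3.15 and 4.64 CPM (log2 fold change -2.79 ± 0.62 SE, edgeR adjusted p = 0.00478). A fit of the 4 libraries alone called 45, and leaving out single libraries left 1 to 3, with 2 without pabpc1a MO replicate 1, 3 without its replicate 2 and 1 without either ybx1 MO library.

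The rRNA-depleted libraries took no part in choosing the genes, and amanitin asks which mRNAs the embryo makes itself. The labels name no embryos given the carrier alone, so the effect of the handling cannot be told apart from that of amanitin. The sum was 229 and 221 CPM in amanitin-treated embryos at 4 hpf, against 10384 and 10370 CPM in WT embryos in rRNA-depleted libraries. All 81 genes were lower in amanitin-treated embryos (edgeR, adjusted p under 0.05), where 36.2% of all genes tested were lower and 32.7% higher. The median log2 fold change was -5.82 against -0.02 for all genes tested, and the call of every gene held without any single library. The median gene stood at 1.90% of its WT mean, 21 genes were below 1% and 5 above 5%.

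Among the lowest were asb11, with 0.400 and 0.408 CPM in amanitin-treated embryos, against 132 and 144 CPM in WT embryos (log2 fold change -8.50 ± 0.11 SE, edgeR adjusted p = 1.66e-22), and fgfr4, with 0.560 and 0.876 CPM, against 174 and 169 CPM (log2 fold change -7.99 ± 0.15 SE, edgeR adjusted p = 5.90e-13). The scaffold gene akap12b had 6.83 and 6.12 CPM, against 1431 and 1393 CPM (log2 fold change -7.87 ± 0.07 SE, edgeR adjusted p = 3.58e-20). The receptor gene aplnrb had 1.12 and 0.952 CPM, against 64.2 and 69.5 CPM (log2 fold change -6.11 ± 0.12 SE, edgeR adjusted p = 8.79e-21). The libraries of the groups were apart for all 4 genes. For asb11 and fgfr4, which had few counts in amanitin-treated embryos, the back-calculated SE may be smaller than the counting error. The highest remainder was that of cdkn1a, 11.6% of WT, with 0.432 and 0.770 CPM, against 5.21 and 5.15 CPM (log2 fold change -3.19 ± 0.27 SE, edgeR adjusted p = 1.28e-09). Its level in amanitin-treated embryos was already 0.806 and 0.690 CPM at 2 hpf.

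**Figure D5:**
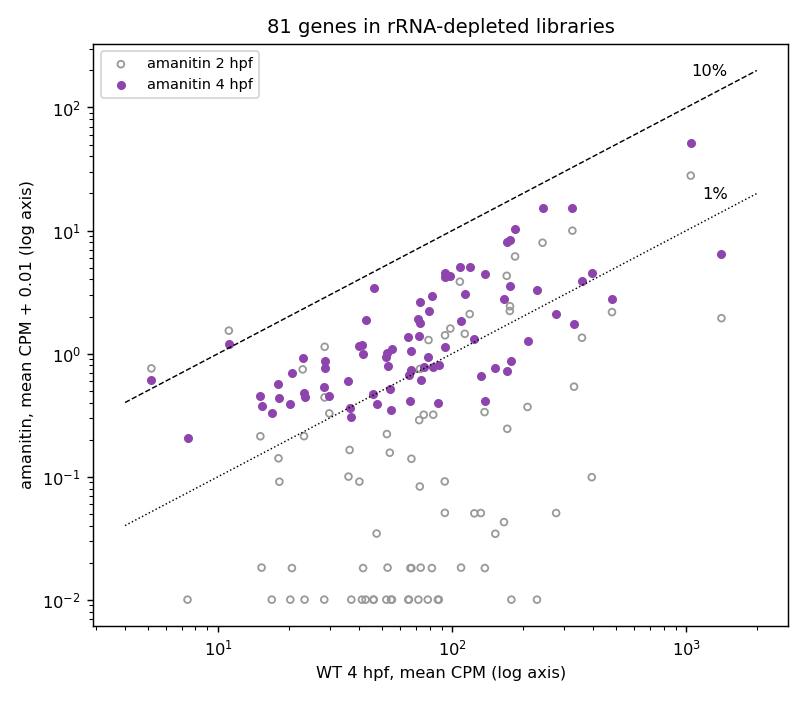
Mean CPM of each of the 81 genes in amanitin-treated embryos, with 0.01 added, at 4 hpf (filled) and 2 hpf (open) against the WT mean at 4 hpf, on log axes in rRNA-depleted libraries. The lines mark 1% and 10% of WT. The filled points of 2 genes, cdkn1a and ENSDARG00000019659, lie above the 10% line, and 78 of 81 lie above the open point of the same gene.

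Even under amanitin the genes were not flat. From 2 to 4 hpf 75 of the 81 genes rose in amanitin-treated embryos and none fell (edgeR, adjusted p under 0.05), where 15.6% of all genes tested rose and 16.7% fell. The median log2 fold change was 3.79, or 3.75 with the 33 genes at 3 or fewer counts at 2 hpf set to their bound, and 0 for all genes tested. The receptor gene aplnrb had 1.12 and 0.952 CPM at 4 hpf, against 0.0161 and 0 CPM at 2 hpf. In the same embryos her5 had 4.13 and 4.77 CPM at 4 hpf, against 0.403 and 0.246 CPM at 2 hpf (log2 fold change 3.79 ± 0.17 SE, edgeR adjusted p = 9.69e-13), and drll.3 had 4.37 and 4.68 CPM, against 0.145 and 0.0328 CPM (log2 fold change 5.65 ± 0.19 SE, edgeR adjusted p = 2.14e-14). The rise was small beside the WT level, since her5 reached 140.0 and 135 CPM and drll.3 394 and 395 CPM in WT embryos at 4 hpf. The 6 genes that did not pass were her11, cdkn1a, GADD45B (ENSDARG00000027744), ENSDARG00000019659, ENSDARG00000076670 and ENSDARG00000090987.

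By 6 hpf that trace had gone for most genes. The sum was 30.1 and 30.7 CPM in amanitin-treated embryos at 6 hpf, against 229 and 221 CPM at 4 hpf. At 6 hpf 72 genes were lower and 3 higher than at 4 hpf (edgeR, adjusted p under 0.05), where 34.6% of all genes tested were lower and 33.1% higher. The median log2 fold change was -3.17, or -3.12 with the 23 genes at 3 or fewer counts set to their bound, against -0.01 for all genes tested. In these libraries inka1a had 0 and 0 CPM at 6 hpf, against 2.00 and 2.16 CPM at 4 hpf, and her5 had 0.264 and 0.137 CPM, against 4.13 and 4.77 CPM (log2 fold change -3.97 ± 0.21 SE, edgeR adjusted p = 3.60e-13). The 3 genes that were higher were HAS2, ENSDARG00000086201 and ENSDARG00000095749. The hyaluronan synthase gene HAS2 had 1.38 and 1.17 CPM at 6 hpf, against 0.512 and 0.770 CPM at 4 hpf (log2 fold change 1.49 ± 0.19 SE, edgeR adjusted p = 3.21e-07), against 135 and 129.8 CPM in WT embryos at 4 hpf. The edgeR scale lay 0.50 above the CPM ratio in this comparison. All 39 genes that fell in WT poly(A) libraries from 4 to 6 hpf also fell under amanitin, as did 4 of the 7 that rose in WT embryos.

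The signalling and stage lists used for comparison were chosen with earlier results of these data known and matched by symbol, so that BMP2 and FZD8, printed in human form, were not counted in the BMP and Wnt lists. Over all genes tested 19.4% were lower and 12.8% higher in ybx1 MO than in WT embryos at 4 hpf, and 20.8% lower and 13.5% higher in pabpc1a MO embryos. Of 39 early zygotic transcription factors, 5 of them among the 81, 22 were lower and 1 higher in ybx1 MO than in WT embryos at 4 hpf, and 28 were lower and 1 higher in pabpc1a MO embryos. Of 11 FGF pathway genes tested, which hold fgfr4, 8 were lower and 1 higher in ybx1 MO embryos and 7 lower and 1 higher in pabpc1a MO embryos. Of 12 Wnt pathway genes tested, which hold wnt11f2, 2 were lower in ybx1 MO embryos, and 6 were lower and 1 higher in pabpc1a MO embryos. Of 13 Notch pathway genes tested, which hold 2 of the 81, 3 were lower in ybx1 MO and 6 in pabpc1a MO embryos. The Wnt and Notch counts in ybx1 MO embryos are near the share over all genes. From 4 to 6 hpf in WT embryos 11 of the 12 Wnt genes and 8 of the 13 Notch genes rose, with 0 and 2 falling, where 27.9% of all genes tested rose and 31.8% fell.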

How the data were processed

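The deposited values were raw read counts per gene identifier; per the submitters' processing notes the authors used TopHat2 2.1.1 and HTSeq 0.6.0, and these sources name no genome build and no strand setting. Summary rows that name no gene, held by 14 files, were left out. They made up 8.59% to 20.3% of the counts in the ybx1 MO poly(A) files and 9.69% to 19.5% in the rRNA-depleted files. The WT and pabpc1a MO poly(A) files held no such rows. This trait of the files therefore separates ybx1 MO from the groups it was compared with, and its effect was not tested. Symbols were found for 21939 of 33737 identifiers. Genes were tested with edgeR 4.0.16 (R 4.3.3, TMM scaling, filterByExpr by group, robust quasi-likelihood test), with all 20 poly(A) libraries in 1 fit (22377 genes) and all 8 rRNA-depleted libraries in another (21525 genes), and Benjamini-Hochberg adjustment over all genes at 0.05. Alternatives were DESeq2 1.42.0, RLE scaling, no filter, totals without the most abundant gene, only the groups compared, the replicate block, other membership thresholds and each library left out.

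Members, roles and lists were chosen with earlier results of these data known. Genes named by rule were the 20 members with a symbol and the highest WT level at 3 hpf and those with the largest changes in each comparison; others were named after their values were seen. A member counted in the totals is not reported here by name.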

Additional observations from a re-analysis of the deposited data

Results flagged for a closer look

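The difference between the morphant effects at 6 and at 4 hpf, tested by an interaction term in edgeR, singled out 32 of the 81 genes in ybx1 MO embryos and 40 in pabpc1a MO embryos, all with a higher log2 fold change over WT at 6 hpf. Among all genes tested 14.8% and 14.1% were called in that direction. With single libraries left out the counts ranged from 7 to 37 for ybx1 MO and from 12 to 73 for pabpc1a MO, and both morphants share their WT libraries. In ybx1 MO embryos the genes called included sb:cb81, with a difference of 3.97 on the log2 scale, cldne with 3.89 and si:dkey-188c14.4 with 3.59. In pabpc1a MO embryos the difference was 5.57 for asb11 and 4.78 for cldne. The sb:cb81 gene had 14.5 and 19.9 CPM in ybx1 MO embryos at 4 hpf, against 368 and 144 CPM in WT embryos, and 282 and 285 CPM at 6 hpf, against 316 and 313 CPM in WT embryos. The adaptor gene asb11 had 174 and 382 CPM in pabpc1a MO embryos at 6 hpf, against 197 and 141 CPM in WT embryos.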

How the results depend on the processing

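Sets chosen with other thresholds held 166 genes at 1 CPM and 36 at 10 CPM. For the 36 genes at 10 CPM the calls were 20 for ybx1 MO and 29 for pabpc1a MO against WT at 4 hpf, 2 for ybx1 MO against WT at 6 hpf, 1 for ybx1 MO against pabpc1a MO at 4 hpf, 27 in WT, 24 in ybx1 MO and 27 in pabpc1a MO embryos for 6 against 4 hpf, 36 for ybx1 MO 4 against 3 hpf, 36, 35 and 35 for amanitin (4 hpf against WT, 4 against 2 hpf, 6 against 4 hpf), and 17 and 16 for the ybx1 and pabpc1a interactions. In that set the median log2 fold changes of 6 against 4 hpf turned to -0.38 in ybx1 MO and -0.94 in pabpc1a MO embryos; the cause was not tested. For ybx1 MO against WT at 6 hpf the count was 8 at 4-fold, 8 with the replicate block, 12 with DESeq2 and 37 with only the groups compared. For ybx1 MO against pabpc1a MO at 4 hpf it was 10 with DESeq2, 3 at 16-fold and 8 at 4-fold. With only the groups compared, which leaves fewer libraries for the spread, the counts were 0 for pabpc1a MO against WT at 4 hpf (edgeR; 58 at an unadjusted p under 0.05) and 6 at 6 hpf, 0 for ybx1 MO against pabpc1a MO at 4 hpf (edgeR; 1 at an unadjusted p under 0.05) and 45 at 6 hpf, 29 for pabpc1a MO 6 against 4 hpf, and 60 and 2 for the interactions. With no filter on low counts they were 21 for the pabpc1a interaction and 3 for ybx1 MO against pabpc1a MO at 6 hpf. No share over all genes is given for the refits of this section, so their counts show only how far a result depends on the fit. Leaving out single libraries gave 8 to 44 for ybx1 MO and 26 to 77 for pabpc1a MO against WT at 4 hpf, 1 to 3 for ybx1 MO against WT at 6 hpf, 0 to 41 and 1 to 3 for ybx1 MO against pabpc1a MO at 4 and 6 hpf, and 7 to 37 and 12 to 73 for the interactions. The median of ybx1 MO against pabpc1a MO at 4 hpf then ranged from -0.16 to 1.81. Of the refits of single named genes 1354 kept the call and direction, 190 lost the call and none reversed. Same-numbered libraries deviated together in some groups and not in others: over 45 pairs of groups the correlation ranged from -0.131 to 0.263 (median 0.0013), and 5 exceeded 0.1, with 0.263 between WT 3 hpf and pabpc1a MO 4 hpf and 0.231 between the morphants at 4 hpf. Since most did not, and no label ties the numbers to a batch, they were not taken to pair the libraries. With the replicate block the counts at 4 hpf were 49 for ybx1 MO and 68 for pabpc1a MO against WT.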

Other observations

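WT embryos of 4 hpf were measured with both kits. Of the 81 genes 61 had a higher mean CPM in the poly(A) than in the rRNA-depleted libraries and 20 a lower one, with a median ratio of 1.39. No share over all genes is given beside these counts, so they are not read as a trait of the set. GATA3 had the highest ratio, 8.19, with 184 and 93.5 CPM in poly(A) libraries and 16.5 and 17.4 CPM in rRNA-depleted libraries. The cell cycle inhibitor gene cdkn1a had a ratio of 4.81. At the low end ENSDARG00000076400 had a ratio of 0.413, mxtx2 one of 0.540 and slc25a55a, a mitochondrial carrier gene, one of 0.631. These libraries were fitted separately and the ratios were not tested. Of the 81 genes 21 were found by symbol in the RefSeq annotation of GRCz12tu, and her5 and her11 were the single pair of direct neighbours among them.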
